A study of Mus musculus with 2 samples.

Results

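The Mir17 to Mir92 cluster is a run of 6 mouse miRNA genes on chromosome 14, Mir17, Mir18, Mir19a, Mir20a, Mir19b-1 and Mir92-1, and its paralog on the X chromosome contributes Mir20b, Mir19b-2, Mir92-2 and Mir363. These 10 genes, of 1178 miRNA hairpins searched, were described in small RNA from mouse spleen cells. A sequence of 18 to 30 nt was given to a gene when it equalled a stretch of the annotated hairpin, directly or after 1 to 3 nt were taken off its 3′ end. By this rule 260 of 5450 distinct miRNA sequences (tags) in Ia_low and 392 of 10783 in Ia_high belonged to the 10 genes, and all 10 genes had reads.

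The groups were CD11c+ spleen cells that stained weakly for Ia (Ia_low) and CD11c+ spleen cells that stained strongly for it (Ia_high), Ia being the MHC class II protein that presents antigen to T cells. Both came from strain C57BL/6J, were taken from the spleen on beads against CD11c, carry the label dendritic cells and were sorted on anti-Ia staining alone, to a purity above 95%. The labels give no age or sex and do not say whether animals were pooled. There was 1 library per group, so no difference below has a replicate check and no p-value is given.

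The Ia_low library held 13739811 reads of 758783 tags, and the Ia_high library 16388303 reads of 1185709 tags. Reads assigned to miRNA hairpins made up 26.6% of Ia_low and 45.3% of Ia_high. Levels are given as CPM, reads scaled to a total of 1000000 of these miRNA reads. The reads had been amplified by PCR without molecular identifiers, and most tags had been read several times, most often 9 times in Ia_low and 4 times in Ia_high. Counts were therefore divided by these numbers before each exact 95% interval was computed, and the intervals cover counting error only. Where a ratio was formed against 0 reads, 3 reads were used in their place, which equal 0.822 CPM in Ia_low and 0.404 CPM in Ia_high. This floor takes no account of repeated reads, and with counts so divided the exact interval of an arm with 0 reads reached 9.10 CPM in Ia_low and 1.99 CPM in Ia_high.

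Fragments of mRNA in the same libraries were used to check the labels. MHC class II genes went with the sort: H2-Aa had 189 distinct fragments in Ia_low and 972 in Ia_high, and 3 of 4 such genes were at least 2-fold lower in Ia_low once scaled to the 132544 and 320406 fragments of all protein-coding genes. The list of dendritic cell genes summed to 97 fragments in Ia_low and 764 in Ia_high, with 5 of 6 genes lower. Of these genes Xcr1 was at 0, Zbtb46 at 1 and Clec9a at 2 fragments in Ia_low, against 42, 56 and 96 in Ia_high. Flt3 had 6 and Cd209a 9 fragments in Ia_low, against 163 and 85 in Ia_high. Itgax, which encodes the CD11c of the bead selection, had 79 in Ia_low and 322 in Ia_high. Its scaled ratio was 0.593, under the 2-fold limit. The list of Ly6C-low monocyte genes summed to 1164 fragments in Ia_low and 1317 in Ia_high, with 4 of 5 genes higher in Ia_low, led by Ace with 294 fragments in Ia_low and 84 in Ia_high. Among markers of other cell types, both macrophage genes at the minimum of 10 fragments were lower in Ia_low (Vcam1 11.1-fold and Mrc1 8.89-fold). Tcf4 of the plasmacytoid list was 2.14-fold lower, and Siglech of that list had 0 fragments in Ia_low and 4 in Ia_high. Tcf7 of the T cell list had 0 fragments in Ia_low and 32 in Ia_high, but Cd3e and Cd3g had 0 in both. The plasma cell genes Prdm1 and Jchain had ratios of 6.04 and 2.37 and the neutrophil gene Csf3r a ratio of 5.80, all higher in Ia_low. The other neutrophil genes were under the minimum. S100a8 had 2 fragments in Ia_low and 1 in Ia_high, and S100a9 had 1 in Ia_low and 3 in Ia_high. The B cell, NK cell and erythroid lists summed to 3, 5 and 0 fragments in Ia_low and to 15, 12 and 1 in Ia_high, with no gene called. Over all 6935 genes tested, 8.51% were lower and 6.36% were higher by the same rule. The listed dendritic cell genes other than Itgax were thus low in the Ia_low library, which goes against its label of dendritic cells. Itgax itself was present there, which goes with the selection on CD11c. The part of this difference in the values below was not tested. In such bulk samples, fewer cells of a type and less of an RNA per cell cannot be told apart.

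A miRNA gene is copied into a primary transcript that folds into hairpins, and each hairpin is cut into a short duplex whose 5p and 3p strands are called arms. One strand is usually kept in an Argonaute protein, where bases 2 to 8, the seed, choose the mRNAs that are repressed. The Mir17 to Mir92 hairpins lie in the transcript of the host gene Mir17hg, which MYC and E2F factors induce, and the cluster is known for promoting proliferation and survival of lymphocytes, in part by repressing Bcl2l11. After cutting, enzymes can add bases to the 3′ end of a miRNA that the gene does not encode, mostly A or U, and these are called untemplated ends or tails.

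The mature arms are shown because their seeds sort the members into 4 families, and capitals mark the seed. Sequences and coordinates are from RefSeq on GRCm38.p6, whose hairpins were identical to those of the annotation used for all 10 genes. The hairpins of the chromosome 14 cluster ran over 836 bp on the plus strand at chr14:115043671-115044506. The X-linked members ran over 500 bp on the minus strand at chrX:52741693-52742192.
miR-17-5p: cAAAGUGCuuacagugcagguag
miR-20a-5p: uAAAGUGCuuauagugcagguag
miR-20b-5p: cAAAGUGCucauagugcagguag
miR-18a-5p: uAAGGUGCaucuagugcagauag
miR-19a-3p: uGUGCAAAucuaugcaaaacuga
miR-19b-3p: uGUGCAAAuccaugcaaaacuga
miR-92a-3p: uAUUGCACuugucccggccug
miR-363-3p: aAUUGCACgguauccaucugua

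miR-17-5p and miR-20a-5p differed at 2 of 23 positions, as did miR-17-5p and miR-20b-5p. miR-19a-3p and miR-19b-3p differed at 1 of 23. miR-92a-3p and miR-363-3p shared the seed but differed at 11 of 21 positions, so their reads could not be exchanged. miR-19b-3p is encoded by both Mir19b-1 and Mir19b-2, and miR-92a-3p by both Mir92-1 and Mir92-2, so each was treated as 1 arm. The hairpins part just after the mature arm, and the 5 bases that follow it are in capitals here because the templated 3′ ends of reads can show which gene they fit.
Mir92-1: uauugcacuugucccggccugUUGAG
Mir92-2: uauugcacuugucccggccugAGGAA
Mir19b-1: ugugcaaauccaugcaaaacugaCUGUG
Mir19b-2: ugugcaaauccaugcaaaacugaUUGUG

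The members gave 14 arms with reads, 12 of them in both libraries and 10 at a mean of 10 CPM or more. miR-92a-3p was far above the rest and among the most abundant of all miRNA arms in both libraries. The miR-19 arms and miR-363-3p were lower in Ia_low, while the miR-17, miR-20a and miR-18a arms and the 5p arm of Mir92-1 did not differ by 2-fold with an interval excluding 1. Of the 10 arms, 3 were at least 2-fold lower in Ia_low by this rule, 0 were higher and 7 were neither. The rule called 28.2% of the 255 miRNA arms at this level lower and 9.02% higher, so the share of members called lower was near the background. Scaled to all reads of each library, the rule called 5 of the 8 member arms that then reached the level lower, and 55.3% of all arms lower and 2.01% higher. The median log2 ratio of Ia_low over Ia_high was -0.42 over the 10 member arms and -0.32 over all 255.

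**Figure D1:**
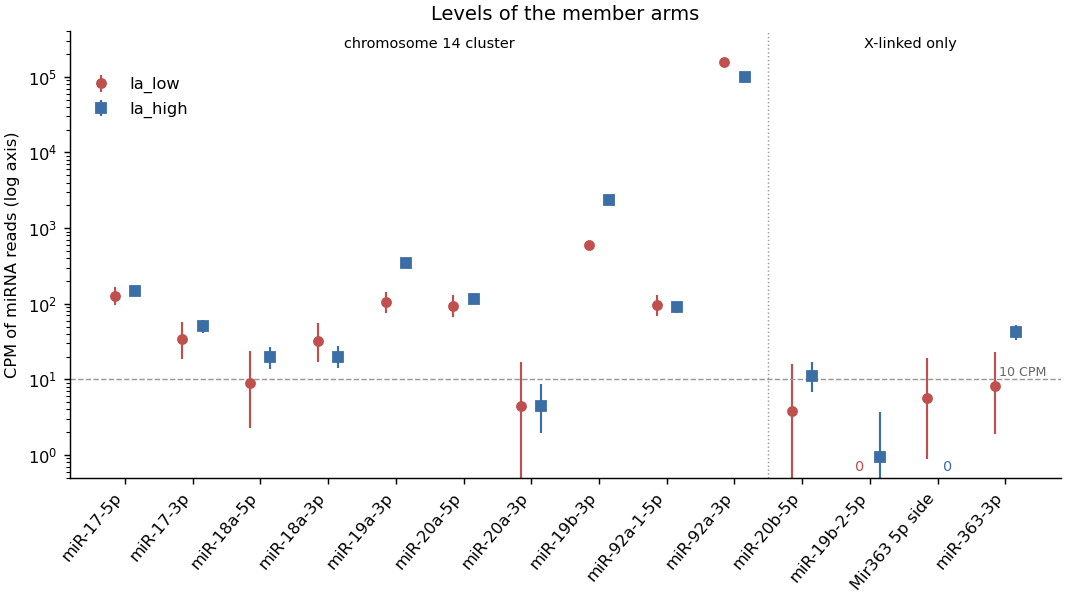
Level of each member arm in CPM of miRNA reads on a log axis, in Ia_low (circles, left) and Ia_high (squares, right), with exact 95% counting intervals as bars. miR-92a-3p sits at 155639 CPM in Ia_low and 100159 CPM in Ia_high, miR-19b-3p and miR-19a-3p sit apart between the libraries, and arms with 0 reads are written as 0.

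miR-92a-3p is the arm of Mir92-1 and Mir92-2 that shares its seed with miR-25-3p and miR-363-3p. It had 567951 reads in Ia_low, or 155639 CPM, and 743245 reads in Ia_high, or 100159 CPM. It ranked 1 among all miRNA arms in Ia_low and 3 in Ia_high. Its ratio of Ia_low over Ia_high was 1.55 (interval 1.54 to 1.57), under the 2-fold limit. On the log2 scale this was 0.64, but it was -0.13 when scaled to all reads of each library and 0.16 from fully templated reads alone, so no direction is given. Reads of miRNAs were longer on average in Ia_low (22.71 nt) than in Ia_high (22.34 nt), and weighting reads by length gave a log2 ratio of 0.26.

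The 5p arm of the same hairpin, miR-92a-1-5p, had 349 reads in Ia_low (95.6 CPM) and 663 in Ia_high (89.4 CPM), a ratio of 1.07 (0.734 to 1.53). The 3p arm had 1627 times as many reads as this 5p arm in Ia_low and 1121 times in Ia_high, with reads that Mir92-2 could have given included. No read of either library fitted the 5p arm of Mir92-2.

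The miR-19 arms are known as main carriers of the cluster's effect on cell survival in mouse lymphoma. miR-19b-3p had 2170 reads in Ia_low, or 594.7 CPM, and 17383 reads in Ia_high, or 2343 CPM, and was 3.94-fold lower in Ia_low (3.46 to 4.503). miR-19a-3p had 384 reads in Ia_low, or 105 CPM, and 2592 reads in Ia_high, or 349 CPM, and was 3.32-fold lower (2.43 to 4.64). Both were more than 2-fold lower under every scaling tried, with log2 ratios of miR-19b-3p between -2.75 when scaled to all reads and -1.66 when centred on the median arm. The seed family GUGCAAA came from members alone, and its sum was 700 CPM in Ia_low and 2692 CPM in Ia_high, 3.85-fold lower.

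miR-17-5p and miR-20a-5p, which share the seed AAAGUGC and repress Cdkn1a and E2f1, lay close to each other in both libraries. miR-17-5p had 468 reads in Ia_low (128 CPM) and 1082 in Ia_high (146 CPM), a ratio of 0.880 (0.641 to 1.19). miR-20a-5p had 344 reads in Ia_low (94.3 CPM) and 859 in Ia_high (116 CPM), a ratio of 0.814 (0.562 to 1.15). Both intervals held 1, though miR-20a-5p passed the 2-fold rule when scaled to all reads, with a log2 ratio of -1.07. The opposite arm miR-17-3p had 126 reads in Ia_low (34.5 CPM) and 372 in Ia_high (50.1 CPM), a ratio of 0.689 (0.363 to 1.22). From fully templated reads alone its log2 ratio was -1.56 (-3.36 to -0.20), past the limit.

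Mir18 gave few reads and more of its 3p than its 5p arm in Ia_low. miR-18a-5p had 33 reads in Ia_low (9.04 CPM) and 146 in Ia_high (19.7 CPM), a ratio of 0.460 (0.110 to 1.33). miR-18a-3p had 117 reads in Ia_low (32.1 CPM) and 147 in Ia_high (19.8 CPM), a ratio of 1.62 (0.789 to 3.12). Of the Mir18 reads, 22% in Ia_low (5.87 to 48.6) and 49.8% in Ia_high (37.9 to 61.8) were of the 5p arm, and these intervals overlap. The 5p arm took 78.8% of Mir17 reads in Ia_low and 74.4% in Ia_high. It took 95.6% of Mir20a reads in Ia_low and 96.3% in Ia_high, and miR-20a-3p had 16 reads in Ia_low and 33 in Ia_high. Mir19a and Mir19b-1 gave reads of the 3p arm alone in both libraries.

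The X-linked members were seen at low levels. miR-363-3p had 30 reads of 2 tags in Ia_low, or 8.22 CPM, and 313 reads of 13 tags in Ia_high, or 42.2 CPM. It was 5.13-fold lower in Ia_low, with a wide interval from 1.78 to 22.8. miR-20b-5p had 14 reads in Ia_low and 83 in Ia_high and was under the 10 CPM limit. The 5p side of Mir363 had 21 reads of 1 tag in Ia_low and 0 in Ia_high, and miR-19b-2-5p had 0 reads in Ia_low and 7 in Ia_high. The X-linked arms that no other member shares summed to 65 reads in Ia_low (17.8 CPM) and 403 in Ia_high (54.3 CPM), 3.05-fold lower (1.44 to 7.65).

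**Figure D2:**
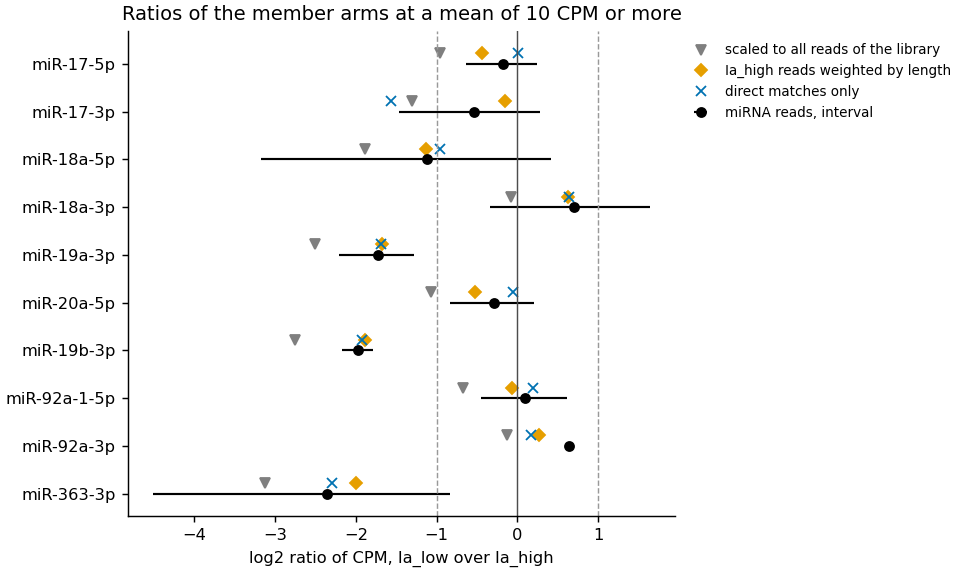
Log2 ratio of Ia_low over Ia_high for the 10 member arms at a mean of 10 CPM or more (black, with 95% counting intervals), beside the same ratio under 3 other ways of processing, with dashed lines at 2-fold. miR-19b-3p, miR-19a-3p and miR-363-3p lie beyond the left line in each of these, while miR-92a-3p changes sign when scaled to all reads.

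Sums over the cluster depended on miR-92a-3p. The 10 arms of the chromosome 14 cluster summed to 571958 reads in Ia_low and 766522 in Ia_high, and miR-92a-3p was 99.3% of these in Ia_low and 96.96% in Ia_high. The summed level was 156737 CPM in Ia_low and 103296 CPM in Ia_high, a log2 ratio of 0.60. Without miR-92a-3p the sum was 1098 CPM in Ia_low and 3137 CPM in Ia_high, 2.86-fold lower in Ia_low (2.59 to 3.15).

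Ratios between arms of the same library need no scaling total. For each read of miR-17-5p there were 1214 reads of miR-92a-3p in Ia_low and 687 in Ia_high, which differ by 1.77-fold (1.31 to 2.38). From fully templated reads alone this difference was 1.12-fold (0.808 to 1.54), so it rests on the tailed reads. With reads weighted by length it was 1.63-fold (1.22 to 2.18). For each read of miR-17-5p there were 4.64 reads of miR-19b-3p in Ia_low and 16.1 in Ia_high, 3.46-fold lower in Ia_low (2.51 to 4.79). miR-20a-5p stayed at 0.735 reads for each of miR-17-5p in Ia_low and 0.794 in Ia_high, a ratio of 0.926 (0.588 to 1.46). miR-19a-3p stood at 0.177 reads for each of miR-19b-3p in Ia_low and 0.149 in Ia_high, a ratio of 1.19 (0.848 to 1.66). The miR-19 arms were thus lower together relative to miR-17-5p, while miR-20a-5p kept its proportion to miR-17-5p within counting error. miR-92a-3p stood at 262 reads for each of miR-19b-3p in Ia_low and 42.8 in Ia_high, a 6.12-fold difference (5.38 to 6.97) that was 4.23-fold (3.69 to 4.85) from fully templated reads alone and 4.44-fold (3.90 to 5.05) with reads weighted by length. These intervals are from a normal error on the log scale of the divided counts.

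Genes outside the members share these seeds. miR-93-5p, of the further paralog cluster with Mir106b and Mir25, had 2351 CPM in Ia_low and 3326 CPM in Ia_high, and the members gave 8.62% of the reads with the seed AAAGUGC in Ia_low and 7.34% in Ia_high. miR-25-3p had 17140 CPM in Ia_low and 22013 CPM in Ia_high, a ratio of 0.779 (0.759 to 0.799), and miR-92b-3p had 191 CPM in Ia_low and 160 CPM in Ia_high. Members gave 89.98% of reads with the seed AUUGCAC in Ia_low and 81.9% in Ia_high. For each read of miR-92a-3p there were 0.110 reads of miR-25-3p in Ia_low and 0.220 in Ia_high. The sister arms miR-106b-5p (47.7 CPM in Ia_low and 111 CPM in Ia_high) and miR-106b-3p (674 CPM in Ia_low and 1511 CPM in Ia_high) were 2.33-fold and 2.24-fold lower. The remaining genes of the X-linked cluster were scarce: Mir18b gave 15 reads of its 5p arm in each library, and miR-106a-5p had 0 reads in Ia_low and 41 in Ia_high.

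Most reads of miR-92a-3p carried an untemplated end. Of its reads, 89.3% in Ia_low (89.1 to 89.6) and 84.2% in Ia_high (84.0 to 84.3) ended in 1 to 3 bases that neither hairpin encodes. The most abundant reads are shown with the added bases in capitals, since the unmodified form had fewer reads than the AU and AA forms in both libraries.
miR-92a-3p with AU: uauugcacuugucccggccuguAU
miR-92a-3p with AA: uauugcacuugucccggccuguAA
miR-92a-3p unmodified: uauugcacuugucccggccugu
miR-92a-3p with AG: uauugcacuugucccggccuguAG
miR-92a-3p with AAU: uauugcacuugucccggccuguAAU

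The AU form had 157278 reads in Ia_low and 177378 in Ia_high, the AA form 144728 in Ia_low and 189041 in Ia_high, and the unmodified form 41934 in Ia_low and 76645 in Ia_high. The AG form had 35212 reads in Ia_low and 52372 in Ia_high, and the AAU form 38276 in Ia_low and 35718 in Ia_high. Relative to miRNA reads, the ratio of Ia_low over Ia_high was 2.18 for the AAU form and 1.80 for the AU form. It was 1.56 for the AA form, 1.37 for the AG form and 1.11 for the unmodified form. The AAU form is 25 nt long, the AU, AA and AG forms 24 nt and the unmodified form 22 nt. Scaling to all reads of each library moves the log2 of each of these ratios by -0.77. Set against reads of 22 nt, the ratio of Ia_low over Ia_high had a median of 1.53 at 24 nt over 93 miRNA arms. At 25 nt it was 1.39 over 62 arms. The part of this length shift in the differences between the forms was not tested.

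Tails of 2 nt were the most common. They were found on 62.7% of miR-92a-3p reads in Ia_low and 59.5% in Ia_high. Tails of 3 nt were found on 19.4% in Ia_low and 16.9% in Ia_high, and tails of 1 nt on 7.22% in Ia_low and 7.68% in Ia_high. No tail was found on 10.7% in Ia_low and 15.8% in Ia_high. The first added base was A in 96.6% of tailed reads in Ia_low and 96.4% in Ia_high, while over all other miRNA arms it was A in 47.1% in Ia_low and 48.6% in Ia_high. A U added after nt 22 equals the next base of Mir92-1 and was counted as templated, so the share of A is a share of visible tails and cannot be set directly against the other arms. Reads that end at nt 23, which would include such a U, were 7.16% of miR-92a-3p reads in Ia_low and 7.08% in Ia_high. The last added base was U in 48.7% of tailed reads in Ia_low and 43.5% in Ia_high. In the other arms a lone A was the usual tail, on 37.4% of tailed reads in Ia_low and 38.9% in Ia_high, followed by a lone U on 31.9% in Ia_low and 34.2% in Ia_high. The AU end made up 32.7% of the tailed reads of miR-92a-3p in Ia_low and 29.9% in Ia_high, but 2.65% in Ia_low and 2.32% in Ia_high over the other arms.

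The tailed share was high at the main templated end. Counted from the start of the mature arm, 91.7% of miR-92a-3p reads in Ia_low and 90.5% in Ia_high had their last templated base at nt 22, and 91.3% of these in Ia_low and 87.1% in Ia_high were tailed. Reads ending at nt 23 were tailed in 76.7% of cases in Ia_low and 72.2% in Ia_high. The few reads ending at nt 20 were tailed in 72.02% of 218 cases in Ia_low (50.3 to 88.2) and 37.8% of 694 in Ia_high (30.5 to 45.4). At nt 21 the shares were 8.54% in Ia_low and 5.43% in Ia_high, but an added U there equals the next base of Mir92-1 and an added A that of Mir92-2, so tails that begin with these bases could not be seen at that position and it is not compared.

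**Figure D3:**
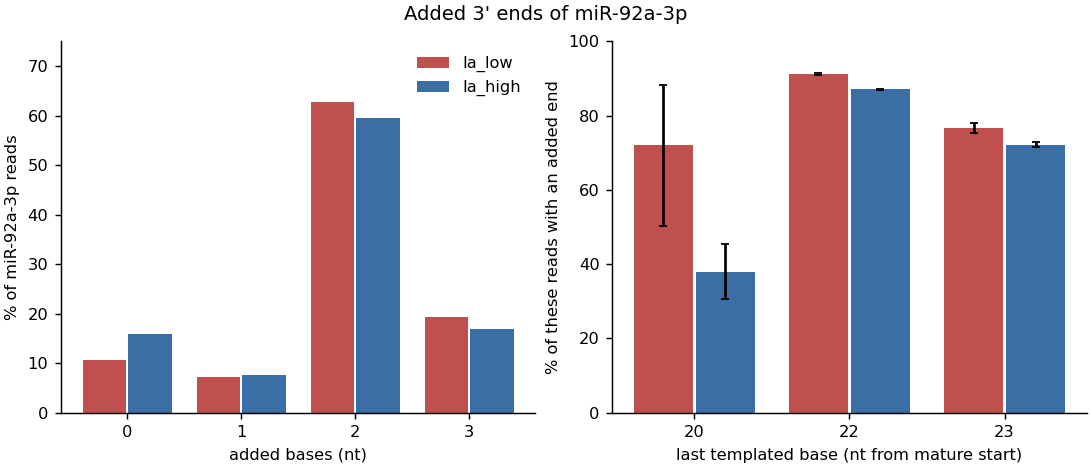
Left, percent of miR-92a-3p reads with 0 to 3 untemplated bases in Ia_low (left bars) and Ia_high (right bars). Right, percent of reads with an added end by the position of the last templated base, with exact 95% intervals and without nt 21, where an added A or U cannot be told from a templated base: reads ending at nt 22 were tailed in 91.3% of cases in Ia_low and 87.1% in Ia_high.

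By their 3′ ends most reads of miR-92a-3p fitted Mir92-1. In Ia_low 97.8% of the reads fitted the Mir92-1 hairpin alone, 1.16% fitted Mir92-2 alone and 1.02% fitted both. In Ia_high the shares were 95.6% for Mir92-1 alone, 2.06% for Mir92-2 alone and 2.31% for both. A read with a U added after nt 21 fits Mir92-1 and one with an A added there fits Mir92-2, whichever gene it came from, so these shares are of fit and not of origin. The start of the arm was fixed, at the RefSeq start in 99.5% of reads in both libraries. No tailed read of miR-92a-3p, of 507395 in Ia_low and 625552 in Ia_high, equalled a stretch of another annotated transcript.

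Some tags of the deposited files still held a constant 3′ run of 17 bases behind the small RNA. Among 958 such reads of miR-92a-3p in Ia_low and 1588 in Ia_high, the bases before the run were an added AU in 31.8% in Ia_low and 26.4% in Ia_high, and AA in 26.3% in Ia_low and 28.0% in Ia_high. In these reads the U of the AU end stood before the constant run. With an added end of any length counted, 89.7% of reads in Ia_low and 84.7% in Ia_high were tailed, and 2.89% in Ia_low and 2.70% in Ia_high had more than 3 added bases.

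Most other members had far lower tailed shares. Of miR-19b-3p reads 5.48% were tailed in Ia_low (2.97 to 9.16) and 2.99% in Ia_high (2.50 to 3.54), mostly with a lone U. For miR-19a-3p the share was 10.4% in Ia_low (3.18 to 23.6) and 6.87% in Ia_high (5.04 to 9.10). The tailed share of miR-17-5p was 14.7% in Ia_low and 19.96% in Ia_high, and that of miR-20a-5p was 2.33% in Ia_low and 11.4% in Ia_high. miR-17-3p had a tail on 68.3% of 126 reads in Ia_low (38.8 to 89.7) and on 30.9% of 372 reads in Ia_high (21.7 to 41.3). These intervals overlap, and the reads in Ia_low were of 8 tags. A lone U was the most common end of miR-17-3p in both libraries. For miR-18a-3p the shares were 39.3% in Ia_low and 32.7% in Ia_high, with AU the most common end in both. miR-18a-5p was tailed in 36.4% of 33 reads in Ia_low and 39.0% of 146 in Ia_high, and miR-363-3p in 36.7% of 30 reads in Ia_low and 35.5% of 313 in Ia_high, too few reads to tell the libraries apart. The seed relative miR-25-3p was tailed in 22.9% of reads in Ia_low and 15.8% in Ia_high, and miR-92b-3p in 54.9% in Ia_low and 52.6% in Ia_high. In the further paralog cluster miR-106b-3p was tailed in 50.3% of reads in Ia_low and 24.1% in Ia_high. Its most common ends in Ia_low were a lone U on 11.3% of its reads and AU on 10.3%. In Ia_high the most common was a lone A on 6.15%.

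Against all miRNAs, miR-92a-3p ranked 4 in Ia_low and 3 in Ia_high by tailed share among 88 arms with 1000 reads or more in both libraries. The median tailed share of these arms was 21.9% in Ia_low and 16.5% in Ia_high. miR-92a-3p alone gave 53.2% of all tailed miRNA reads in Ia_low and 40.1% in Ia_high. The higher tailed share in Ia_low was common, being found in 66 of the 88 arms. Of the 88 arms, 12 were tailed in over 50% of reads in both libraries. Reads of miRNAs were also longer on average in Ia_low (22.71 nt) than in Ia_high (22.34 nt), and a tail lengthens a read. The tailed shares were not weighted by length, so more tailing and a shift in read length cannot be told apart.

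**Figure D4:**
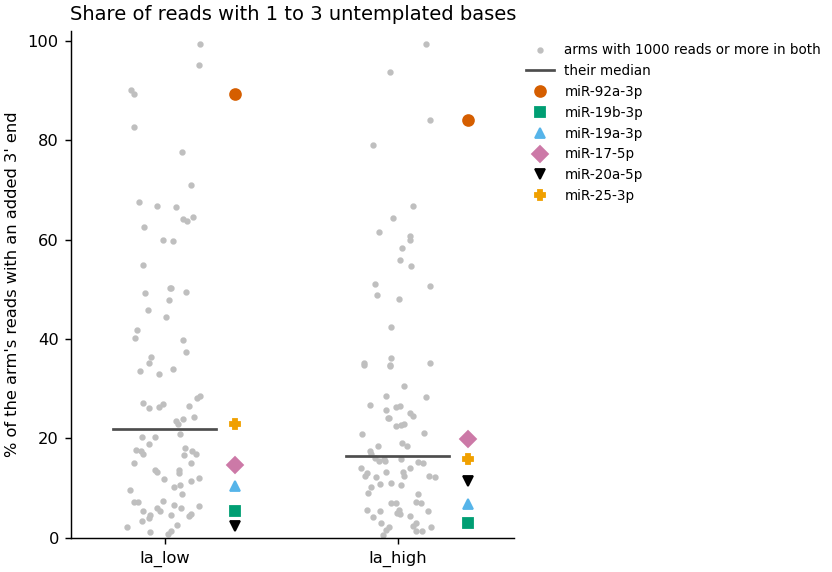
Percent of each arm's reads with 1 to 3 untemplated bases in Ia_low (left) and Ia_high (right), for 88 arms with 1000 reads or more in both libraries (grey) and their median (line), with 5 member arms and miR-25-3p in colour. miR-92a-3p lies near the top in both libraries and the other members shown lie at or below 19.96%.

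Read lengths of miR-92a-3p followed its tails. Of miR-92a-3p reads 62.8% in Ia_low and 59.8% in Ia_high were 24 nt long, while the RefSeq arm has 21 nt. miR-19b-3p was 22 nt long in 90.8% of reads in Ia_low and 92.7% in Ia_high, which is 1 nt short of its RefSeq arm. miR-17-5p was 23 nt long in 73.7% of reads in Ia_low and 54.6% in Ia_high, and 24 nt long in 11.5% in Ia_low and 30.2% in Ia_high. The 24 nt form of miR-17-5p that the hairpin encodes in full had 54 reads in Ia_low and 219 in Ia_high.

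**Figure D5:**
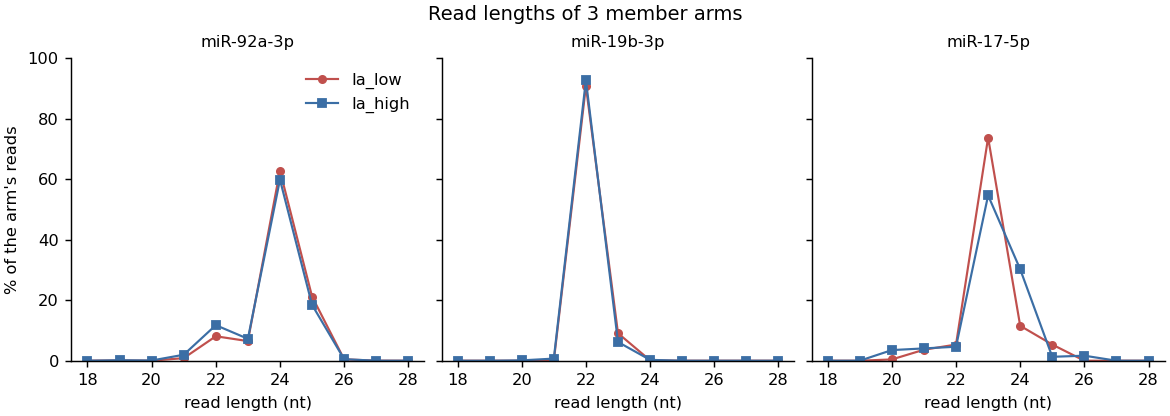
Percent of reads by read length in nt for miR-92a-3p, miR-19b-3p and miR-17-5p in Ia_low (circles) and Ia_high (squares). miR-92a-3p peaks at 24 nt and miR-19b-3p at 22 nt in both libraries, and miR-17-5p peaks at 23 nt with more 24 nt reads in Ia_high.

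Starts, which set the seed, were mostly at the RefSeq position. miR-19b-3p began there in 99.9% of reads in both libraries and miR-92a-1-5p in all reads. miR-17-5p did so in 94.9% of reads in Ia_low and 97.5% in Ia_high, miR-20a-5p in 96.5% in Ia_low and 98.95% in Ia_high, and miR-18a-3p in 86.3% in Ia_low and 100% in Ia_high. miR-19a-3p began 1 base earlier in 16.1% of reads in Ia_low (6.69 to 30.6) and 5.05% in Ia_high (3.50 to 7.03), intervals that overlap. miR-17-3p began 1 base later in 20.6% of 126 reads in Ia_low (4.29 to 49.95) and 0.538% of 372 reads in Ia_high (0.000527 to 4.92), and these intervals overlap too. miR-363-3p began 1 base later in 36.7% of 30 reads in Ia_low (1.69 to 90.3) and 27.2% of 313 reads in Ia_high (17.7 to 38.4). Its reads in Ia_low were of 2 tags, too few to tell the libraries apart.

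Distinct mRNA fragments of the host gene and of genes around the cluster were few, and fragments of 20 to 30 nt can reflect break-down as well as abundance. Mir17hg gave 1 fragment outside the hairpins in Ia_low and 8 in Ia_high. Myc, an activator of the cluster, gave 3 fragments in Ia_low and 14 in Ia_high, Mycn gave 0 in both, and E2f3 gave 1 in Ia_low and 5 in Ia_high.

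Of 10 genes known as targets of the cluster, 7 had 10 fragments or more in both libraries together, 0 were at least 2-fold lower in Ia_low and 2 were higher. The same rule called 8.51% of all 6935 genes lower and 6.36% higher. The median log2 ratio of the 7 was 0.77, against -0.14 over all 6935 genes. The list was not split by the arm that acts on each gene. Thbs1, which encodes the secreted matrix protein thrombospondin, had 84 fragments in Ia_low and 80 in Ia_high, a scaled ratio of 2.54 (1.85 to 3.49). Tgfbr2, a receptor for TGF-beta, had 50 fragments in Ia_low and 57 in Ia_high, a ratio of 2.12 (1.42 to 3.16). The cell cycle inhibitor Cdkn1a had a ratio of 1.70 (1.24 to 2.33) and Bcl2l11, which promotes cell death, a ratio of 1.55 (1.01 to 2.35), both under the 2-fold limit. E2f2, Phlpp2 and Itga5 were also neither, E2f1 and E2f3 were under the minimum, and Ccn2 had 0 fragments in both. Thbs1 and Tgfbr2 stood beside the changes given above in markers of dendritic cells, monocytes, macrophages and plasma cells and in Csf3r. The part of cell content in the ratios of Thbs1 and Tgfbr2 was not tested.

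Of 5 factors known from human or mouse cells to act on miRNA hairpins or tails, 0 passed the 2-fold rule in either direction. Over all genes tested 8.51% passed it as lower and 6.36% as higher. All intervals but that of Tut7 reached past 2-fold, so changes of that size are not excluded for the other factors. Tut4 and Tut7, which add U, had ratios of 0.703 (0.376 to 1.25) and 1.09 (0.694 to 1.68). Tent2, which adds A, had 10 fragments in Ia_low and 20 in Ia_high, a ratio of 1.21 (0.505 to 2.71). Hnrnpa1, which binds the Mir18 hairpin, had a ratio of 0.647 (0.389 to 1.03), and Khsrp a ratio of 1.15 (0.628 to 2.03). Genes of cell division, a state in which the cluster is known to be induced, were lower in Ia_low: Mki67 had 5 fragments in Ia_low and 152 in Ia_high, and Top2a 2 in Ia_low and 82 in Ia_high. Their part in the lower miR-19 levels was not tested.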

How the data were processed

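Small RNA under 30 bases was purified on a gel from mirVana RNA, ligated to adaptors, and, after 12 PCR cycles and a cut of the 90 bp band, sequenced by Solexa, per the labels' protocols. Each deposited file lists distinct sequences with their read counts, unscaled. How the authors trimmed adaptors and filtered reads, and any build they used, is not given in the sources used here.

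Tags of 18 to 30 nt were matched to 1178 hairpins of the GENCODE M21 annotation (GRCm38) without mismatch, directly or after the smallest trim of 1 to 3 nt. Each hairpin was split in the middle into its arms. Tags fitting several arms (0.110% of miRNA reads in Ia_low and 0.283% in Ia_high) were left out. An arm was called at a mean of 10 CPM or more, a 2-fold ratio and an interval excluding 1, with 0 reads set to 3. The rule for names took the members, the seed relatives at that level, genes of the paralog clusters, the host, target, regulator and tailing genes, and the most common ends and starts, of which the text gives a part. Marker lists are given by counts and some of their genes. The mRNA fragments were tags of 20 to 30 nt matching 1 gene, each counted once; 1 gene of the target list is not reported here and was left out of its counts and median. No test between groups was possible. Members, lists and rules were chosen with earlier results of these data known. The scripts were tested on simulated data (Python 3.11.15, numpy 2.4.6, scipy 1.17.1, matplotlib 3.10.9).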

Additional observations from a re-analysis of the deposited data

How the results depend on the processing

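No paired analysis was possible because each group has 1 library, and no replicate could be left out. Scaling to all reads of each library moved every log2 ratio by -0.77 and gave 5 lower member arms (miR-17-3p and miR-20a-5p added), beside 55.3% lower and 2.01% higher of all arms. Centring on the median arm raised every ratio by 0.323, with 18.8% of all arms lower and 13.3% higher, and weighting reads by length left 21.6% lower. Intervals from the reads as deposited gave 4 lower member arms (miR-18a-5p added, 31.8% of all arms lower). Direct matches only gave 4 (miR-17-3p added, 29.1% of all arms lower). A minimum of 100 CPM gave 2 (miR-363-3p lost, 23.5% of all arms lower). A minimum of 1 CPM gave 1 higher member arm, the 5p side of Mir363, with 6.65% of all arms higher. A limit of 1.5-fold gave 1 higher member arm, miR-92a-3p, with 14.5% of all arms higher. The summed log2 ratio of the chromosome 14 cluster, 0.60 as reported, was -0.17 when scaled to all reads, 0.92 when centred, 0.24 when weighted by length and -0.002 from direct matches only. It was -1.42 with miR-92a-3p left out of the sum and the total, an alternative chosen after seeing the data. The sum of the X-linked arms ranged from -2.38 to -1.19, the last from direct matches only, where its interval (-2.69 to 0.007) included no change. The untemplated share of miR-92a-3p was 89.95% in Ia_low and 85.5% in Ia_high with ends that Mir92-2 alone encodes counted as untemplated. Chosen after seeing the data, it was 89.7% in Ia_low and 84.7% in Ia_high with added ends of any length, and 97.5% in Ia_low and 93.8% in Ia_high in tags that still held the constant run. Ratios between arms from direct matches or weighted by length, chosen after seeing the data, are given beside their results for miR-92a-3p. Those of the other arm pairs lay inside the reported intervals. Of 83 further values of single arms, 71 lay inside the reported interval and 12 outside. Depth limits the arms with under 50 reads in Ia_low, which are miR-18a-5p, miR-20a-3p and the X-linked arms.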
